A study of Homo sapiens with 6 samples.

Results

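The genes described here encode the protein subunits of the mitochondrial ribosome, measured by RNA-seq in HaCaT cells, an immortalized line of human keratinocytes. Members were the rows of the deposited count table whose symbol starts with MRPL or MRPS followed by a number, which gave 76 of 12499 genes. All 76 were annotated as protein coding in GENCODE release 29, lay on 21 chromosomes and passed the filter on low counts. The lowest total count of any row in the deposited table was 51, so genes with fewer reads were already absent. The filter kept 12462 of its 12499 rows, so passing it says little. MRPL2 and MRPL53, which belong to the same family, had no row under these symbols in that table and so were not analyzed here. The cells had been infected for 48 hours with a control lentivirus (LV-NC) or with a lentivirus carrying the ATF7 coding sequence (LV-ATF7), and both groups were then kept in high glucose (HG, 25 mM) for 24 hours. Each group had 3 libraries of poly(A) RNA, and all came from this 1 cell line. The sources used here do not say what the control virus carried, which promoter drove ATF7, or whether the replicates were separate cultures, so p-values measure the spread between these libraries, which may be technical.

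Mitochondria keep their own ribosome, which translates the few messages of mitochondrial DNA into core subunits of the respiratory chain and ATP synthase. Its RNAs are mitochondrial products, but every one of its proteins is encoded in the nucleus, made on cytosolic ribosomes and imported. The small subunit binds and decodes the message, and the large subunit joins amino acids and passes the new chain through an exit tunnel that faces the inner membrane. Part of the proteins descend from those of the bacterial ribosome, and the others were added in mitochondria. Keratinocytes lean strongly on glycolysis, and their mitochondria also take part in differentiation.

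Several facts about the libraries bear on every value below. ATF7, the gene carried by the virus, had 50.6, 46.4 and 52.2 CPM (counts scaled to TMM library size) in the controls labeled LV-NC, against 21.9, 25.7 and 28.0 CPM in the 3 labeled LV-ATF7. Its level was thus lower, not higher, in the libraries labeled LV-ATF7, and each direction given here is by labels that ATF7 goes against. Whether reads from the viral ATF7 entered this count is not stated in the sources used here, and whether the labels were crossed cannot be told from it. The study's own qRT-PCR and Western blots of ATF7 in infected HaCaT cells were not analyzed here. Total counts ran from 16686472 to 20562768 per library. All 12 keratinocyte markers examined were in the table, from KRT5 (the basal keratin, at 99.96, 355 and 344 CPM in LV-NC and 3224, 3215 and 3622 CPM in LV-ATF7) to KRT14, its partner, at no more than 12.5 CPM in any library. Of these markers, 8 were called higher and 1 lower in LV-ATF7. Only 3 of 10 markers of other cell types were in the table (COL1A1, CDH5 and PMEL), and their summed level ran from 39.1 to 43.6 CPM in LV-NC and from 100.3 to 110.9 CPM in LV-ATF7, of which CDH5 alone gave at least 81.0 CPM. What part these shifts had in the results was not tested. The library labeled LV-NC replicate 1 stood apart from the other 2 controls, with KRT6A, a keratin of activated keratinocytes, at 1.29 CPM where they had 95.1 and 92.8 CPM.

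The 76 genes did not move as a block. In RNA from whole cultures, a change in the kinds of cells and a change in the level per cell cannot be told apart. By edgeR's quasi-likelihood test, with p adjusted over all 12462 genes tested and a threshold of 0.05, 26 members were higher in LV-ATF7, 16 were lower and 34 were not called. The 42 called members were 55.3% of the family, against 67.6% of all genes tested. Calls in the higher direction took in 34.7% of all genes and calls in the lower direction 32.9%. When a fold change of 1.5 or more was also required, 26 members were left (17 higher and 9 lower), which is 34.2% of the family against 52.9% of all genes. A change of at least 2-fold was called for 6 members, or 7.89%, against 32.8% of all genes tested. The groups' libraries did not overlap for 48 members (63.2%), against 72.7% of all genes. The members' median log2 fold change (LV-ATF7 relative to LV-NC) was 0.0077, beside 0.00016 for all genes, and the median size of the change, without its sign, was 0.39 beside 0.67. Single members ranged from -1.57 to 1.44 on this log2 scale.

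The split between directions depended on scaling. With library size alone in place of TMM, the median of all genes shifted to -0.16 and 21 members were called higher and 25 lower. Higher calls were then 45.7% of the members' calls, where TMM gave 61.9%, and for all genes tested the share turned likewise, from 51.3% to 42.4%. Counted on the raw totals, the family took up 0.286%, 0.348% and 0.333% of the reads in the LV-NC libraries and 0.299%, 0.304% and 0.309% in the LV-ATF7 libraries. Those shares were 0.322% ± 0.032 (SD, n = 3) and 0.304% ± 0.0047 (SD, n = 3), and the range of the controls enclosed all 3 LV-ATF7 libraries. On TMM library sizes the order of the means turned, to 0.305% in LV-NC and 0.322% in LV-ATF7.

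**Figure D1:**
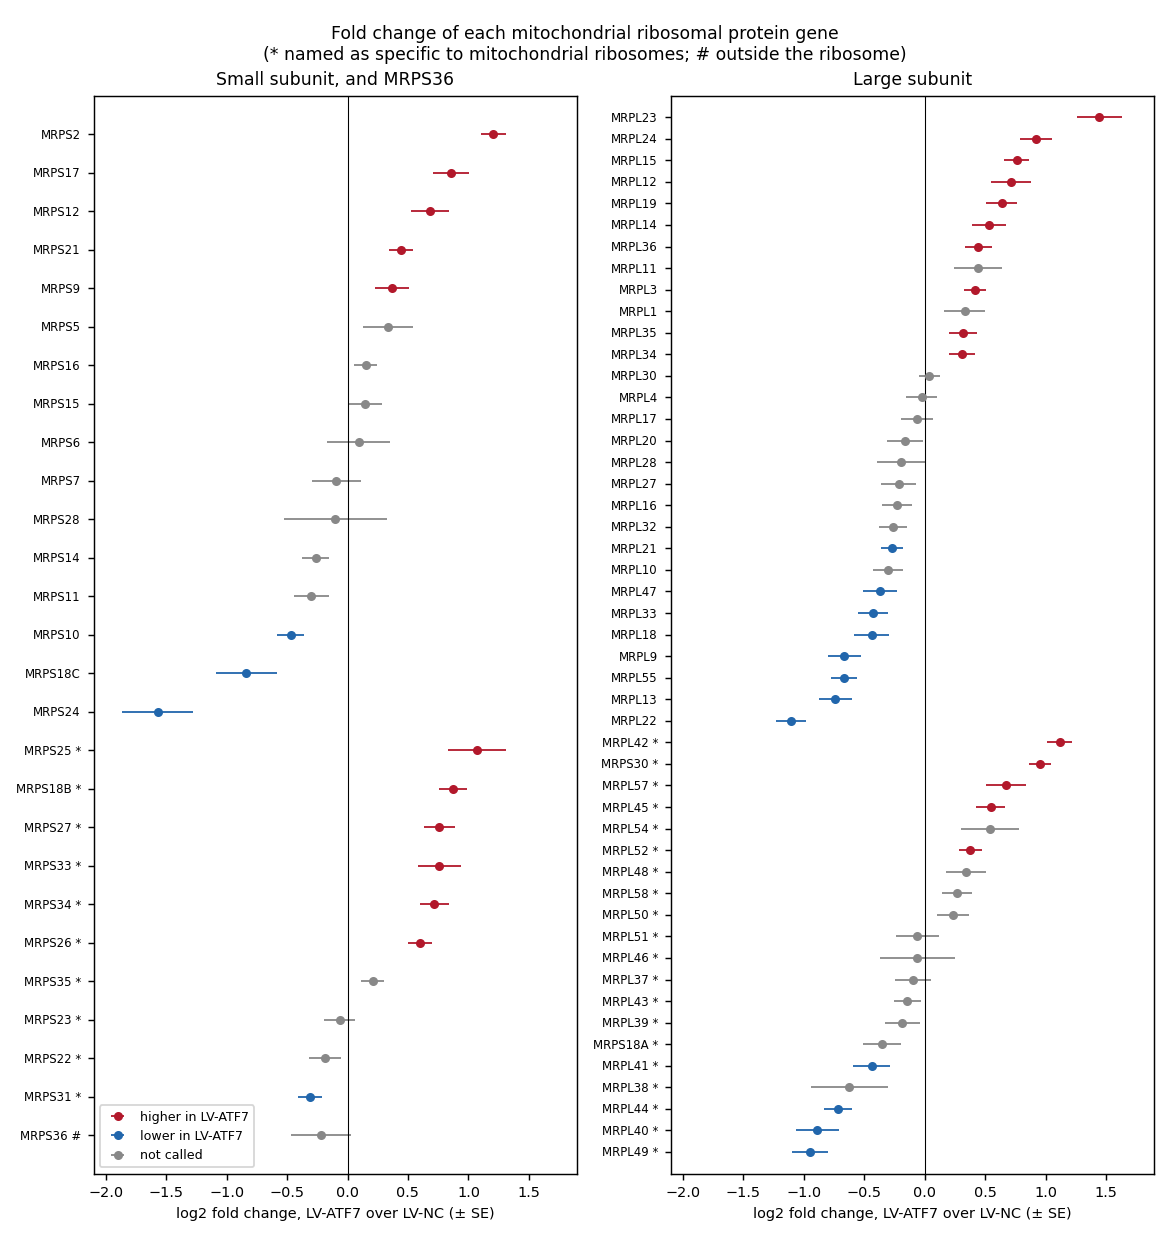
Fold change of each of the 76 genes, drawn on the log2 scale as LV-ATF7 relative to LV-NC (points) with its standard error (bars), for the small subunit and MRPS36 on the left and the large subunit on the right. Red marks the 26 genes called higher, blue the 16 called lower and grey the 34 not called, and both subunits hold genes of all 3 kinds.

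Both subunits held rising and falling members. Of the 26 proteins of the small subunit, 11 were called higher and 4 lower, with a median log2 fold change of 0.18. Of the 49 of the large subunit, 15 were called higher and 12 lower, with a median of -0.06. Within the small subunit, 10 proteins are named as specific to mitochondria, and 6 of these were higher and 1 lower (median 0.66), while the 16 with bacterial names had 5 higher and 3 lower (median 0.12). In the large subunit, the 29 with bacterial names had 10 higher and 8 lower, and the 20 mitochondrial ones had 5 higher and 4 lower, with a median of -0.06 in each class. Calls took in 57.7% of the small subunit and 55.1% of the large subunit, against 67.6% of all genes tested. Only the mitochondria-specific class of the small subunit, with 7 of 10 called, was slightly above that share. Its 6 higher calls among 10 stood beside 34.7% of all genes called higher. With library size alone in place of TMM, the small subunit had 10 higher and 7 lower, and the large subunit turned to 11 higher and 18 lower. No difference between classes was tested. MRPS18A and MRPS30 are counted with the large subunit, where structures of the ribosome place them, and MRPS18A and MRPS18B carry mitochondria-specific names although they are relatives of bacterial S18.

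In the small subunit, the largest rise was in MRPS2 (ENSG00000122140, chromosome 9, 135499984 to 135504673), which sits where the head and body of the subunit meet. Its level was 23.4, 21.2 and 24.7 CPM in LV-NC and 54.9, 50.3 and 54.6 CPM in LV-ATF7. The libraries of the groups lay far apart, and the log2 fold change was 1.20 (SE 0.10, adjusted p = 3.03e-05). MRPS25, a mitochondria-specific protein, stood at 16.1, 8.18 and 10.01 CPM in LV-NC and at 23.3, 22.8 and 26.0 CPM in LV-ATF7. LV-NC replicate 1 was its highest control, unlike for most members, and the log2 fold change was 1.07 (SE 0.24, adjusted p = 0.00443). MRPS17, a ribosomal RNA-binding protein of bacterial descent, was measured at 8.78, 7.60 and 7.93 CPM in LV-NC and at 12.9, 14.5 and 16.6 CPM in LV-ATF7. It rose by 0.85 on the log2 scale (SE 0.15, adjusted p = 0.00132). For MRPS27, a pentatricopeptide repeat protein that binds RNA, LV-NC libraries held 48.8, 65.4 and 60.0 CPM and LV-ATF7 libraries 89.6, 100.4 and 105.1 CPM. Every LV-ATF7 library was above every control, at a log2 fold change of 0.76 (SE 0.13, adjusted p = 0.00107).

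Falls in the small subunit were fewer. MRPS24 (ENSG00000062582, chromosome 7, 43866558 to 43869893), the counterpart of bacterial S3 at the site where messages enter, had the largest fall of all members. Its libraries held 5.41, 4.14 and 3.01 CPM in LV-NC and 1.45, 1.07 and 1.71 CPM in LV-ATF7. The groups were apart at a low level, and the log2 fold change was -1.57 (SE 0.30, adjusted p = 0.00184). Of its principal transcript, 85.7% of the bases are also exons of other annotated genes, foremost the readthrough gene URGCP-MRPS24, and how the reads there were divided is not stated in the sources used here. MRPS10, a protein of the head of the subunit, was at 31.1, 36.2 and 35.3 CPM in LV-NC and at 25.7, 25.1 and 23.3 CPM in LV-ATF7. Its fall was small but without overlap, at -0.47 (SE 0.11, adjusted p = 0.00553).

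The 3 relatives of bacterial S18 went separate ways. MRPS18B rose, from 44.9, 56.5 and 55.8 CPM in LV-NC to 95.2, 89.9 and 102.2 CPM in LV-ATF7, with a log2 fold change of 0.87 (SE 0.12, adjusted p = 0.000314). MRPS18C fell, from 2.52, 2.52 and 2.37 CPM to 1.34, 1.73 and 1.05 CPM, with a log2 fold change of -0.84 (SE 0.25, adjusted p = 0.0181). Neither gene's groups overlapped. MRPS18A stood at 23.9, 32.6 and 34.1 CPM in LV-NC and at 21.4, 25.1 and 24.5 CPM in LV-ATF7. LV-NC replicate 1 fell among the LV-ATF7 libraries, and the change of -0.35 (SE 0.16, adjusted p = 0.0770) was not called. Without that library MRPS18A was called lower, at -0.51 (adjusted p = 6.12e-05). Of the transcript of MRPS18C, 78.9% of the bases lie in exons of ABRAXAS1 and other genes on the opposite strand, and for MRPS18A the figure is 56.9% (RSPH9), and the sources used here do not state whether counting used strand.

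In the large subunit, MRPL23 (ENSG00000214026, chromosome 11, 1947278 to 1984522), which lines the tunnel's end, had the largest rise of all members. It was measured at 8.51, 13.7 and 12.9 CPM in LV-NC and at 29.5, 32.2 and 33.8 CPM in LV-ATF7. Its log2 fold change was 1.44 (SE 0.19, adjusted p = 0.000246), and the lowest LV-ATF7 library was well above the highest control. MRPL24, its neighbor at the tunnel, was at 14.7, 18.4 and 18.6 CPM in LV-NC and at 34.2, 30.0 and 34.1 CPM in LV-ATF7. This was a rise of 0.92 without overlap (SE 0.13, adjusted p = 0.000454). MRPL22 (ENSG00000082515, chromosome 5, 154941070 to 154969411), which reaches into the same tunnel, was instead at 44.2, 58.5 and 48.9 CPM in LV-NC and at 23.7, 23.0 and 23.8 CPM in LV-ATF7. The 3 LV-ATF7 libraries lay close together below every control, and the log2 fold change was -1.10 (SE 0.12, adjusted p = 0.000124). MRPL45, which ties the tunnel exit to the inner membrane, was picked after its values were seen, at 51.8, 67.4 and 65.8 CPM in LV-NC and 87.6, 91.1 and 91.3 CPM in LV-ATF7. It rose by 0.55 on the log2 scale (SE 0.12, adjusted p = 0.00380). Of the other proteins near the tunnel exit, also picked afterward, MRPL47 was called lower at -0.37 and MRPL17 was not called at -0.06, and no list of tunnel proteins was fixed or tested.

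Other rises in the large subunit were in MRPL42, MRPS30 and MRPL15. MRPL42, a mitochondria-specific protein, held 22.8, 24.2 and 23.7 CPM in LV-NC and 55.7, 48.6 and 48.9 CPM in LV-ATF7, a log2 fold change of 1.12 (SE 0.10, adjusted p = 4.16e-05). MRPS30, also known as PDCD9, held 48.1, 48.2 and 46.5 CPM in LV-NC and 86.4, 97.3 and 93.0 CPM in LV-ATF7, a log2 fold change of 0.95 (SE 0.09, adjusted p = 4.94e-05). In both genes the 3 controls were almost level with each other, and LV-NC replicate 1 did not stand out. MRPL15, a protein of bacterial descent near the core of the subunit, was at 53.1, 60.6 and 52.1 CPM in LV-NC and at 89.3, 90.4 and 101.4 CPM in LV-ATF7. Its log2 fold change was 0.76 (SE 0.10, adjusted p = 0.000330).

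Falls in the large subunit included its member with the highest CPM, MRPL49, and others at lower CPM. MRPL49 (ENSG00000149792, chromosome 11, 65122183 to 65127371), a mitochondria-specific protein, was at 179.7, 259 and 252 CPM in LV-NC and at 114.5, 113.9 and 129.2 CPM in LV-ATF7. The gap between groups was wide also from the lowest control, LV-NC replicate 1, and the log2 fold change was -0.95 (SE 0.15, adjusted p = 0.000689). MRPL40, a mitochondria-specific protein whose gene lies in the region lost in the 22q11 deletion syndrome, was at 36.9, 60.1 and 55.7 CPM in LV-NC and at 25.8, 28.0 and 28.8 CPM in LV-ATF7. Its log2 fold change was -0.89 (SE 0.18, adjusted p = 0.00274), and without LV-NC replicate 1 it was -1.09. MRPL44, which has an RNase III fold, fell from 37.6, 43.8 and 44.8 CPM to 23.6, 25.8 and 27.4 CPM, by 0.72 on the log2 scale (adjusted p = 0.000790). The groups of these genes were apart in every library. Another 3 proteins of bacterial descent, MRPL13, MRPL55 and MRPL9, had log2 fold changes of -0.74, -0.67 and -0.66 with adjusted p from 0.000823 to 0.00294, and none of them overlapped between groups.

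At the middle of the range, MRPL30, MRPL4 and MRPL51 had the log2 fold changes nearest 0. MRPL30, a large-subunit protein of bacterial descent, was at 64.6, 63.3 and 63.2 CPM in LV-NC and at 62.3, 65.9 and 68.1 CPM in LV-ATF7. All 6 libraries were within a few CPM of each other, and the log2 fold change was 0.04 (SE 0.09). For MRPL4 it was -0.02 (SE 0.13) and for MRPL51 -0.06 (SE 0.18). MRPL51 was at 34.4, 58.0 and 51.5 CPM in LV-NC and at 44.8, 46.7 and 46.4 CPM in LV-ATF7, between LV-NC replicate 1 and the other controls, and without that replicate it was called lower at -0.27 (adjusted p = 0.00666). MRPS36, which despite its name is a subunit of the 2-oxoglutarate dehydrogenase complex and not of the ribosome, held 11.3, 22.8 and 21.7 CPM in LV-NC and 15.5, 17.1 and 15.3 CPM in LV-ATF7. LV-NC replicate 1 was its lowest library and the other controls its highest, so the change of -0.22 (SE 0.25) was not called. Without LV-NC replicate 1 it was -0.50 (adjusted p = 0.000281).

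**Figure D2:**
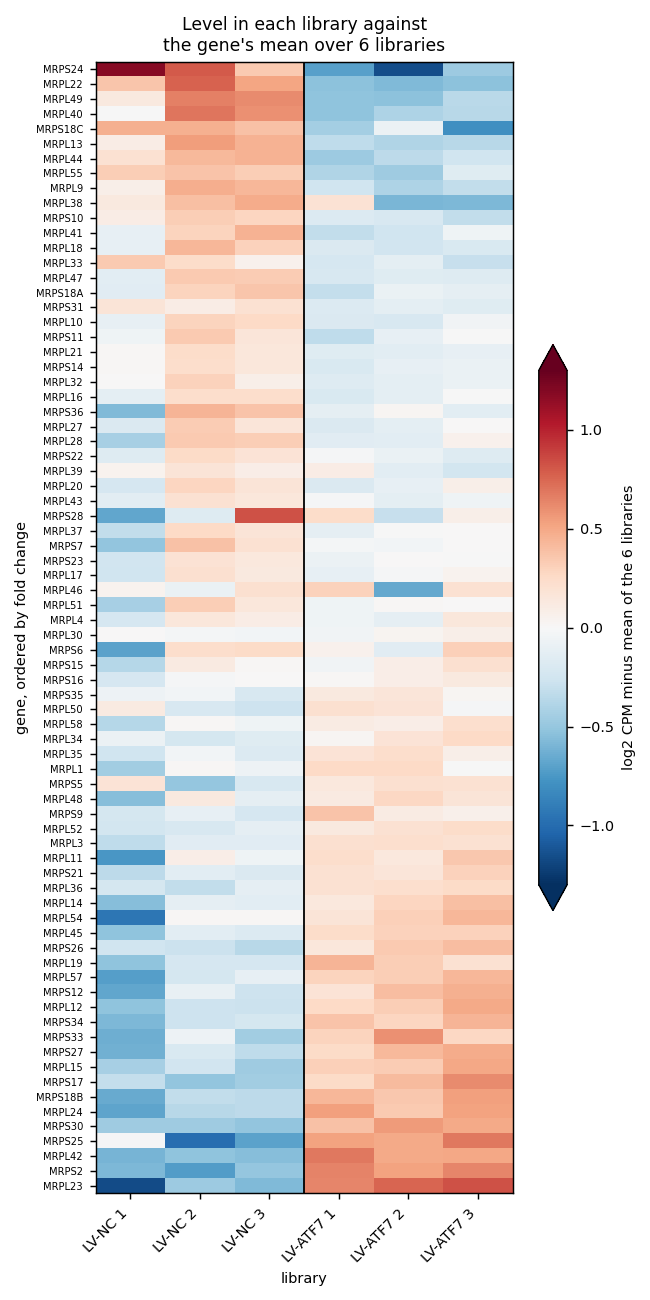
Level of each of the 76 genes (rows, ordered by fold change) in each of the 6 libraries (columns), as log2 CPM minus the gene's mean over the 6 libraries, with red above and blue below the mean and the black line between the groups. The LV-NC replicate 1 column is paler or bluer than those of LV-NC replicates 2 and 3 for most genes, and it is the lowest of the 3 controls in 58 of 76 rows.

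LV-NC replicate 1 was low for most of these genes. It was the lowest of the 3 controls in 58 members (76.3%), against 43.7% of all genes tested, and the lowest of all 6 libraries in 38 of the 76, against 22.6%. The median log2 ratio of its level to the mean of the other 2 controls was -0.33 for the members and 0.007 for all genes. The 78 nuclear-encoded subunits of the respiratory chain had similar values, with LV-NC replicate 1 the lowest control in 61 (78.2%), the lowest of 6 libraries in 40 and a median log2 ratio of -0.36. It was the lowest control in 18 of the 26 members called higher, in 11 of the 16 called lower and in 29 of the 34 not called. The median coefficient of variation of a member was 13.8% among the LV-NC libraries and 6.61% among the LV-ATF7 libraries, beside 14.4% and 7.65% for all genes. Without this library, 31 members were called higher and 33 lower, so that 84.2% of the family was called, against 80.1% of all genes. The 42 calls made with 6 libraries were all among them, in the same direction, and 22 were added, of which 17 were lower. The added falls included MRPL10, part of the stalk that recruits translation factors, at -0.44 (adjusted p = 1.05e-05), and MRPL28, at -0.43 (adjusted p = 2.55e-05), both picked after their values were seen. Without the library the members' median log2 fold change was -0.12, beside -0.008 for all genes.

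**Figure D3:**
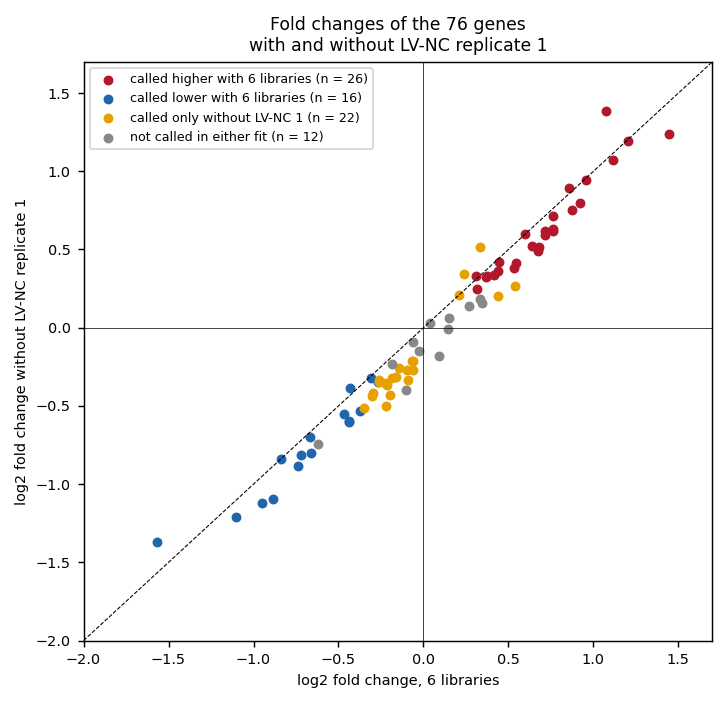
Log2 fold change of each of the 76 genes with all 6 libraries (horizontal axis) and without LV-NC replicate 1 (vertical axis), with the dashed line where both are equal. Red and blue points were called with 6 libraries, the 22 yellow points only without LV-NC replicate 1, and the 12 grey points in neither fit, and most points lie below the line.

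Of the 42 called members, 30 were called in the same direction under each of 13 alternatives of scaling, test, filter, pairing and left-out library. These were 21 of the 26 higher and 9 of the 16 lower. The same count was not made over all genes tested, so whether this share is high or low for these libraries cannot be told. Among the 10 largest rises and 10 largest falls described above, only MRPS18C was lost under any of them, in 2 of the 13. Those genes were chosen from the same libraries as called, largest and without overlap, so this was largely set by the choice. A single called member, MRPL41, overlapped between groups, with LV-NC replicate 1 at 73.0 CPM below the highest LV-ATF7 library at 75.9 CPM, and 7 members that were not called did not overlap.

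Levels between genes are compared per length, as the mean CPM of the 6 libraries per kilobase of the principal transcript. The highest member was MRPL21 at 92.4 CPM per kb, followed by MRPL49 at 86.5 and MRPL15 at 64.9, all of the large subunit, and the median member was at 28.3 CPM per kb. MRPL21 was at 63.3, 74.0 and 69.7 CPM in LV-NC and at 56.3, 57.0 and 58.3 CPM in LV-ATF7. It was called lower at -0.27 on the log2 scale (SE 0.09, adjusted p = 0.0338), a call kept under 7 of the 13 alternatives. The lowest were MRPL38 at 0.597 CPM per kb, MRPS18C at 1.17 and MRPS28 at 1.17, so the family spanned 154.8-fold. Proteins of the ribosome are present in equal numbers, except for MRPL12, which has several copies, and MRPL12 was at 5.096 CPM per kb. The value of MRPL42, 2.39 CPM per kb, rests on a principal transcript annotated at 15582 bases.

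The 4 lowest levels went with overlap in the annotation, but other low levels did not. Among the members, 7 shared over 50% of their principal transcript's bases with exons of other genes, which are MRPS24, MRPS18C, MRPL46, MRPL12, MRPL38, MRPS18A and MRPS28. The median level of these 7 was 1.46 CPM per kb, beside 32.6 for the 47 members that share no base, and all 4 of the lowest members were among the 7. MRPS18A, however, was at 25.4 CPM per kb with 56.9% shared. Low levels also occurred with little overlap, as in MRPL42 (2.39, with 1.81% shared) and MRPS5 (3.21, with 0% shared). MRPL38 had 1.18, 1.42 and 1.51 CPM in LV-NC and 1.23, 0.714 and 0.719 CPM in LV-ATF7, and the groups overlapped. MRPS28 had 0.589, 0.839 and 1.68 CPM in LV-NC and 1.12, 0.765 and 0.995 CPM in LV-ATF7, which also overlapped. The rule by which reads on overlapping genes were counted is not given in the sources used here, and its part in these levels was not tested. Of the 7, 3 were called (MRPL12 higher, MRPS18C and MRPS24 lower). In addition, 32 members have pseudogenes named after them, 73 in all, with which reads could be shared.

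**Figure D4:**
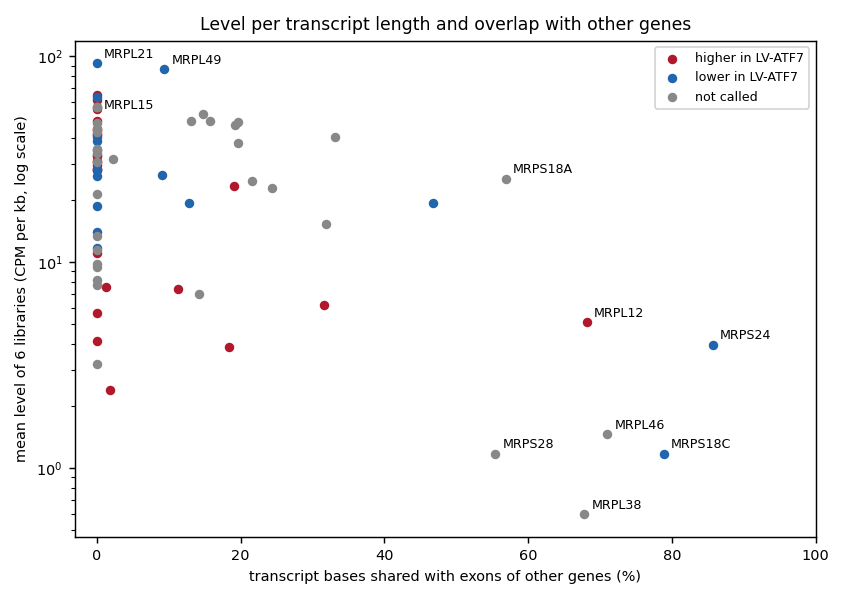
Mean level of the 6 libraries in CPM per kb of the principal transcript (vertical axis, log scale) against the percentage of that transcript's bases shared with exons of other genes (horizontal axis), with a point for each of the 76 genes. The 4 lowest points, MRPL38, MRPS18C, MRPS28 and MRPL46, all share over 50% of their bases.

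ATF7 binds the cAMP response element (CRE), and the promoters of the members were therefore searched for it, together with sequences bound by factors known for mitochondrial genes. RefSeq promoters (GRCh38.p14, 250 bases before the start to 50 after it) were matched by symbol for 68 of the 76 members, all but MRPL10, MRPL13, MRPL15, MRPL21, MRPL23, MRPL35, MRPS28 and MRPS36. The whole CRE, TGACGTCA, was in 0 of the 68, beside 3.29% of the 10108 promoters of genes tested. Its shorter form TGACG, which is also part of the whole element, was in 33.8% beside 34.3%. It was in 8 of 14 promoters of members called lower, 7 of 23 of members called higher and 8 of 31 of the others. The ETS motif CCGGAAG, the kind bound by GABPA, was in 41.2% of member promoters beside 19.3% of those of genes tested. The YY1 motif AAGATGGCG was in 19.1% beside 3.94%, and the NRF1 motif GCATGCGC in 8.82% beside 5.42%. By call, ETS was in 6 of 14 promoters of members called lower, 7 of 23 called higher and 15 of 31 not called. In the same order, YY1 was in 3, 5 and 5, and NRF1 in 2, 2 and 2. No motif was split by call over all genes tested, and no difference was tested. Both strands were searched. Over all 27305 promoters of the table, the shares were 1.98% for the CRE, 25.01% for TGACG, 10.7% for ETS, 1.85% for YY1 and 3.27% for NRF1. A match of letters is a description and does not show that a factor bound.

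The 250 bases before the RefSeq start are shown for 3 members that fell and 3 that rose, chosen to show each kind of match. They are written 5′ to 3′ on the gene's strand with the matched letters in capitals. GENCODE can place the start elsewhere, so letters shown can lie inside the gene as GENCODE annotates it. Its gene starts at 19431902 for MRPL40, before all letters shown, and at 30617709 for MRPS18B, within them. The first 3 fell, and hold TGACG and the NRF1 motif (MRPL22), the ETS motif (MRPL40) and TGACG (MRPL49). The last 3 rose, and hold TGACG and the NRF1 motif (MRPS18B), TGACG (MRPS30) and 3 copies of the ETS motif (MRPS34).
MRPL22 (chr5:154940823-154941072, plus strand): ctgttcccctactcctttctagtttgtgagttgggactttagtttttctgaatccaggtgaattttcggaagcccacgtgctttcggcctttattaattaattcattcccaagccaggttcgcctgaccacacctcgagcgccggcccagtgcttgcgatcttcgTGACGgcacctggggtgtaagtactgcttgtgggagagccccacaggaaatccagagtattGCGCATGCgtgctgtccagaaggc
MRPL40 (chr22:19432295-19432544, plus strand): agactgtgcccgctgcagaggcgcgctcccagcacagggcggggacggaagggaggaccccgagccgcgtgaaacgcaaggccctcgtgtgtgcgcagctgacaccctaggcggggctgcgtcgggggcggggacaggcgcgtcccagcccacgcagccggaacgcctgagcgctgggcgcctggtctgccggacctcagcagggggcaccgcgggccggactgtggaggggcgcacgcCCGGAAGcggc
MRPL49 (chr11:65121933-65122182, plus strand): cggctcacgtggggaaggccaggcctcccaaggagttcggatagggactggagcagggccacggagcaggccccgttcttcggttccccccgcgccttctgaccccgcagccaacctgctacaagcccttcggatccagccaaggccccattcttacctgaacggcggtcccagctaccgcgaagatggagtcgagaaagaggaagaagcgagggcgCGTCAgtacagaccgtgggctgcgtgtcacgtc
MRPS18B (chr6:30617590-30617839, plus strand): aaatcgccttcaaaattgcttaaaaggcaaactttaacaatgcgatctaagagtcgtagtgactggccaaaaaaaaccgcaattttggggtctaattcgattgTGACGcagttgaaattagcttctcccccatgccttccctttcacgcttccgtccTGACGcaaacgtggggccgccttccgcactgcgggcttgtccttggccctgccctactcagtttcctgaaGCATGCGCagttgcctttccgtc
MRPS30 (chr5:44808697-44808946, plus strand): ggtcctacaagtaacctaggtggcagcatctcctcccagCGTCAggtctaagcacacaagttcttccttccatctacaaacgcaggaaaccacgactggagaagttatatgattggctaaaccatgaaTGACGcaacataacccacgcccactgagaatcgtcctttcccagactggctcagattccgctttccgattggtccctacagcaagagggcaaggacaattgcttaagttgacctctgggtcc
MRPS34 (chr16:1773135-1773384, minus strand): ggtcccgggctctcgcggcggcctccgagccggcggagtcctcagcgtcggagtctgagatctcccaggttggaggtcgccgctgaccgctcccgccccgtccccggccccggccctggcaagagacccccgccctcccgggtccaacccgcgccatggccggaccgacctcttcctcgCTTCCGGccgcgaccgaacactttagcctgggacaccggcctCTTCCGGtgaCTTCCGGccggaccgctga
In MRPL22, MRPS18B and MRPS30 the YY1 motif starts 35, 23 and 13 bases after the start and so lies outside the letters shown. TGACG also occurs across or after the start, outside the letters, in MRPL40, MRPL49 and MRPS18B. The TGACG of MRPL22, on the strand shown, begins 85 bases before the start. MRPS18B holds TGACG at 147 and 93 bases before the start, and its log2 fold change of 0.87 was opposite in sign to the -1.10 of MRPL22. MRPS34, a mitochondria-specific protein of the small subunit picked after its values were seen, was at 28.8, 35.9 and 36.8 CPM in LV-NC and at 55.7, 52.5 and 58.6 CPM in LV-ATF7, a rise of 0.72 (SE 0.12, adjusted p = 0.000982).

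Among the genes of the factors whose motifs were searched, GABPA and GABPB1, the 2 parts of the GA-binding protein, both fell in LV-ATF7, by 1.12 and by 0.72 on the log2 scale. GABPA was at 50.6, 50.4 and 51.0 CPM in LV-NC and at 25.9, 22.4 and 21.8 CPM in LV-ATF7 (adjusted p = 4.69e-05). NRF1 and YY1 were not called, at -0.27 and 0.07. Of the 9 regulators of mitochondrial biogenesis examined, 5 were higher and 2 lower, or 77.8% called against 67.6% of all genes tested. The largest rises were in the coactivator PPARGC1B, from 4.497, 4.04 and 5.90 CPM to 45.2, 46.1 and 42.9 CPM (log2 fold change 3.22), and in MYC, a driver of cell growth, from 209.6, 152.9 and 152.8 CPM to 792, 795 and 810.4 CPM (2.22). ESRRA, PPARGC1A and PPRC1 also rose, by log2 fold changes of 1.06, 1.62 and 1.86.

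Proteins and factors that work with the mitochondrial ribosome were mixed as well. Calls took in 40.0% of mitoribosomal proteins with other symbols, 48.0% of assembly factors and 42.9% of translation factors. Of all genes tested, 67.6% were called. Of the 5 mitoribosomal proteins with other symbols, PTCD3 and CHCHD1 of the small subunit rose, at log2 fold changes of 0.56 and 0.67. The other 3, including the small-subunit GTPase DAP3 at -0.38, were not called. Among 25 assembly and ribosomal RNA modification factors, 7 rose and 5 fell, with a median of 0.17. MRM1, a methyltransferase of the large ribosomal RNA, rose from 25.2, 20.1 and 18.6 CPM to 48.6, 48.3 and 53.6 CPM (1.24), and the GTPase MTG1 rose by 0.95. MPV17L2, a membrane protein needed for assembly, and MALSU1, which keeps unfinished subunits from joining, had changes of -0.89 and -0.79. Among 14 translation and membrane insertion factors, 4 rose and 2 fell, with MRRF, the ribosome recycling factor, at 1.63 and OXA1L, the insertase, at 0.94. GFM2, which acts with MRRF in recycling, was at -0.99, and MTRF1L, a release factor, at -0.48. MRRF held 46.2, 50.6 and 42.5 CPM in LV-NC and 137.8, 146.3 and 145.8 CPM in LV-ATF7, while GFM2 held 54.8, 44.7 and 44.1 CPM and 26.1, 24.6 and 21.7 CPM. These partners in recycling moved in opposite directions in every library.

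Among 16 mitochondrial tRNA synthetases, 4 rose, led by PARS2 (1.11) and EARS2 (0.88), and 4 fell, led by TARS2 (-0.57) and YARS2 (-0.54). Of 6 genes of mitochondrial transcription, 2 rose, the RNA polymerase POLRMT (0.66) and TFB2M (0.48), and 1 fell, MTERF1 (-0.65). Calls thus took in 8 of the 16 synthetases and 3 of the 6 transcription genes. Both shares were below the 67.6% of all genes tested that were called. MRPL12, which has been reported to bind POLRMT, was picked after its values were seen. It was at 3.53, 4.19 and 4.17 CPM in LV-NC and at 6.08, 6.32 and 7.13 CPM in LV-ATF7. Its log2 fold change was 0.72 (SE 0.17, adjusted p = 0.00569), and 68.2% of its transcript is shared with another annotated gene. A link between the changes of MRPL12 and POLRMT was not tested.

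The messages that the mitochondrial ribosome translates were examined beside it, as RNA, and no protein was measured here. Of 12 messages of mitochondrial DNA in the table, 9 were called higher in LV-ATF7 and 0 lower, with a median log2 fold change of 0.49. The 3 messages not called, MT-ND4, MT-CO1 and MT-ND4L, were at 0.09, 0.18 and 0.23. MT-ND1 and MT-ND3, subunits of complex I, led with 0.86 and 0.83. MT-ND3 was at 226, 399 and 425 CPM in LV-NC and at 655, 591 and 618 CPM in LV-ATF7, with LV-NC replicate 1 far below the other controls. LV-NC replicate 1 was the lowest of all 6 libraries for 10 of the 12 (83.3%), against 22.6% of all genes tested. With it left out 10 were called higher, so that 83.3% of these messages were called, against 80.1% of all genes. Poly(A) selection also sets how much of these messages is captured.

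The nuclear-encoded genes of the respiratory chain and ATP synthase were split. Of these 78 genes, taken by symbol, 12 were higher and 13 lower, with a median log2 fold change of 0.05. Calls took in 32.1% of them, against 67.6% of all genes tested. Without LV-NC replicate 1, 18 were higher and 26 lower, and with library size alone 8 and 25. NDUFC2, from 4.18, 3.77 and 3.18 CPM to 8.82, 10.76 and 11.9 CPM, and ATP5MC2, at 1.07, led the rises, and NDUFS5 and NDUFB6 the falls, at -1.02 and -0.97.

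Proteins of the cytosolic ribosome gave other values. Of 79 genes, 76 were called higher in LV-ATF7, 0 lower and 3 not called, with a median log2 fold change of 1.20. Higher calls were 96.2%, against 34.7% of all genes tested. All 79 log2 fold changes were above 0, the lowest at 0.12, and with library size alone 75 genes were called higher. Their share of all counts was 3.96%, 3.37% and 3.19% in the LV-NC libraries and 6.92%, 6.89% and 7.22% in the LV-ATF7 libraries, while that of the 76 mitochondrial ribosomal protein genes stayed between 0.286% and 0.348% in all 6. RPL22, at 17.1, 6.45 and 7.87 CPM in LV-NC and 107.3, 107.3 and 109.0 CPM in LV-ATF7, led with a log2 fold change of 3.36, followed by RPS23 at 3.05. The difference between the families was not tested. Cytosolic ribosomal protein genes have many pseudogenes, and reads shared with them could shift their counts.

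**Figure D5:**
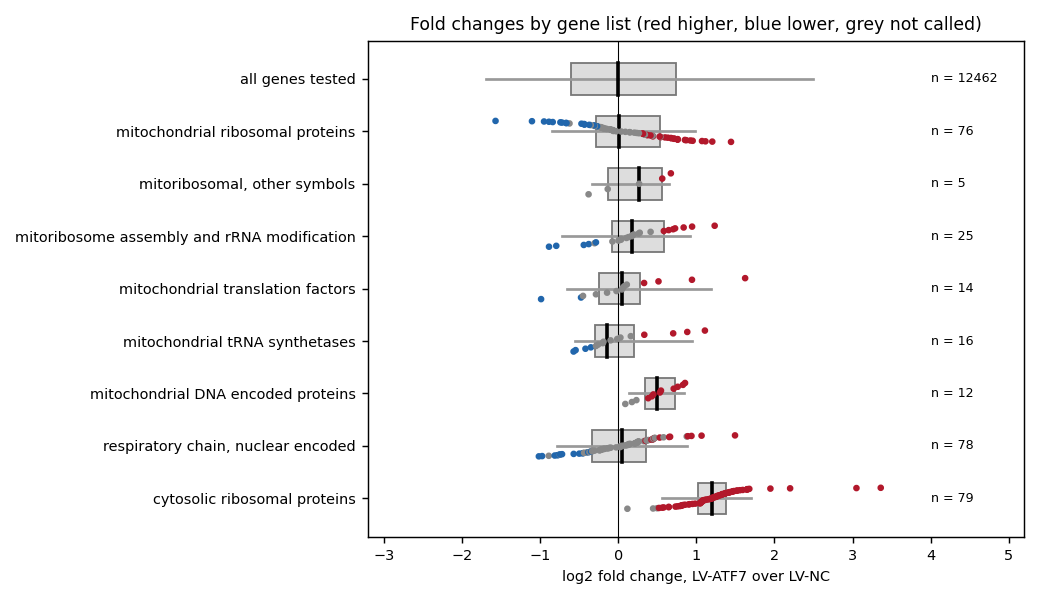
Log2 fold change (LV-ATF7 relative to LV-NC) for all genes tested, the 76 mitochondrial ribosomal protein genes and related lists, with boxes from the 25th to the 75th percentile, a black line at the median, grey lines from the 5th to the 95th percentile and a point for each gene of a list. The mitochondrial ribosomal proteins spread to both sides of 0 around a median of 0.0077, whereas the cytosolic ribosomal proteins lie around a median of 1.20.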

How the data were processed

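Poly(A) RNA of HaCaT cells was sequenced by the authors, who deposited raw read counts per gene. The deposited FPKM values and the deposited fold changes and p-values of the authors' own comparison were not used. Per the labels' processing notes the genome build was GRCh38. The aligner, counter, strand setting and annotation are not given in the sources used here.

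Libraries were grouped by their labels. The test was edgeR's quasi-likelihood F test (version 4.0.16, R 4.3.3) of LV-ATF7 against LV-NC, with TMM scaling and no covariate. Its p-values were adjusted by the Benjamini-Hochberg method over the 12462 genes that filterByExpr kept, at a threshold of 0.05. SE is the log2 fold change divided by the square root of F. CPM uses TMM library sizes. Total counts were 16686472 to 20562768 per library, and counting error is part of the spread between libraries at these depths. Positions, lengths and overlaps are from GENCODE release 29, and promoters from RefSeq. Python 3.11.15 made the summaries. The test was tested on simulated data.

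Members, classes, gene lists and motifs were chosen with earlier results of these data known. Genes named were ATF7, the 10 largest rises and 10 largest falls among called members without overlap, the 3 nearest 0, the 3 highest and 3 lowest per length, the MRPS18 relatives, MRPS36, and the 2 largest rises and falls of each list. Any other member given with values was picked after its values were seen. Alternatives were library size, upper quartile, DESeq2 1.42.0, limma 3.58.1 (voom with sample quality weights), every gene kept, a minimum of 10 counts per library, a replicate block, each library left out, and a fold change of at least 1.5.

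Same-numbered libraries did not deviate together (r = 0.06, -0.02 and 0.06 across genes), so the numbers were not taken to pair them. With 3 libraries a group this does not show that they were unpaired.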

Additional observations from a re-analysis of the deposited data

How the results depend on the processing

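All directions rest on labels that ATF7 goes against, on 3 libraries a group, and on an unstated counting rule. Members called lower (16) were 25 with library size only, 36 with limma voom with sample quality weights, 9 with a fold change of at least 1.5, and 9 to 33 with 1 library left out (33 without LV-NC replicate 1, 9 and 10 without LV-ATF7 replicates 1 and 3). Members called higher (26) were 17 with the fold change and 23 to 31 with 1 library left out. Genes of the 7 related lists called lower (14, leaving out the respiratory chain and the cytosolic ribosome) were 24, 26 and 6 with library size, voom and the fold change, and 10 to 23 with 1 library left out, 23 being without LV-NC replicate 1. The related genes called higher were 30 to 35 with 1 library left out. The members' median log2 fold change was -0.16 with library size and -0.18 with voom, and -0.12 to 0.09 with 1 library left out. On TMM library sizes the mean share of counts in members was 0.305% in LV-NC and 0.322% in LV-ATF7, the reverse of the order on total counts.

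With the replicate number as a block, 24 members were higher and 14 lower, although the numbers were not taken to pair the libraries.

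Of 988 values of single members under an alternative, 56 lost a call, 63 gained one without a change of sign and 18 changed sign, all in members that were not called, of which 1 was then called (MRPS6 with voom). With 1 library left out, the log2 fold change ran from -0.0077 to 0.075 in MRPL30, -0.15 to 0.029 in MRPL4, -0.23 to 0.19 in MRPL46, -0.27 to 0.068 in MRPL51, -0.0051 to 0.21 in MRPS15, -0.40 to 0.38 in MRPS28, -0.18 to 0.20 in MRPS6 and -0.34 to 0.064 in MRPS7. With library size only it was -0.13 in MRPL30, -0.014 in MRPS15, -0.011 in MRPS16 and -0.066 in MRPS6, and with voom -0.27 in MRPS6 (adjusted p = 0.0297). The cause was not tested.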
